A study of Homo sapiens with 6 samples.

Results

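The genes described here encode the subunits, activators and assembly factors of the proteasome. They were taken from the count table as the protein-coding rows whose symbol starts with PSMA to PSMG followed by a digit, together with POMP. The rule found 49 of 30327 genes, and all 49 had enough reads to be tested, among 15801 tested genes. By role they were 17 genes of the 20S core, 17 of the 19S cap, 5 activators and inhibitors and 8 assembly factors. The remaining 2, PSMC3IP and PSME3IP1, encode proteins that interact with a subunit or with an activator. They match by symbol only and are no proteasome subunits.

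The proteasome is the protease that degrades ubiquitin-tagged proteins. Its 20S core is a barrel of stacked rings, with outer alpha rings that gate entry and inner beta rings that hold the catalytic sites of PSMB5, PSMB6 and PSMB7. The 19S cap binds ubiquitin chains, removes them and unfolds the substrate with a ring of ATPases, and core and cap together form the 26S proteasome. Under interferon, cells replace the catalytic subunits with PSMB8, PSMB9 and PSMB10 to form the immunoproteasome, whose peptides are presented on MHC class I molecules, and PSME1 and PSME2 form the PA28 activator ring. Constitutive subunit genes are known to be driven together by NFE2L1, a transcription factor held at the endoplasmic reticulum.

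The libraries were poly(A)-selected, strand-specific RNA-seq of SK-BR-3, an established human breast cancer cell line that overexpresses HER2. In 3 libraries, si_GRB2, the transfected siRNA was directed at GRB2, an adaptor protein downstream of receptor tyrosine kinases, and in the other 3, si_NC, it had no target. The study's methods name a single siRNA against GRB2, used in a single cell line. The sample descriptions and column names give si_GRB2 and si_NC, whereas the titles and genotype labels of the same samples speak of GRB2 overexpression, so the groups below are those of the descriptions. GRB2 stood at 124, 130 and 126 CPM (counts scaled to a common library size with edgeR's TMM factors) in si_NC libraries 1 to 3, the order used throughout, and at 27.8, 28.1 and 29.6 CPM in si_GRB2 libraries 1 to 3. The libraries labelled si_GRB2 therefore held less GRB2 mRNA, with a log2 fold change of -2.15 ± 0.04 (SE, n = 3 per group; edgeR's quasi-likelihood test, adjusted p = 3.87e-15).

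The libraries held 24810378 to 28532480 counted reads and replicates differed with a common coefficient of variation of 3.75%. HER2 (ERBB2), the keratins KRT7, KRT8, KRT18 and KRT19, EPCAM and GRB7 were abundant. These markers of the line themselves changed, and by more than most proteasome genes: ERBB2 was higher by 0.24 on the log2 scale, and KRT18, EPCAM, KRT8, KRT7, GRB7 and KRT19 fell by 0.55, 0.55, 0.41, 0.26, 0.23 and 0.20 (edgeR, all called). Their part in the proteasome values was not tested. E-cadherin (CDH1) had 9 reads in all and was too low to test. Of 12 marker genes of fibroblasts, blood cells and endothelium, CDH5 was the highest, at 16.5 to 28.9 CPM of library total, and the defining genes PTPRC, PECAM1, DCN and LUM had at most 3 reads each. A gene is called higher or lower here when its Benjamini-Hochberg adjusted p over all tested genes was under 0.05. The study's methods speak of independent experiments in general but do not say whether the sequenced replicates were separate cultures, so p-values measure the spread between these libraries, which may be technical. In bulk RNA, fewer cells of a type and less RNA per cell cannot be told apart.

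Promoter windows of 250 bases before to 50 bases after the annotated start (RefSeq, GRCh38.p14) were given for 43 of the 49 genes. PSMA7, PSMB1, PSMB6, PSMB7, PSMD4 and PSMG3 had none. The windows shown here are those of the immunoproteasome and PA28 genes, because this group fell and these windows share a short sequence. It is the core of the interferon-stimulated response element, TTTC and TTTC with any 2 bases between, searched on both strands. It is marked in capitals and is read as its reverse complement in PSMB10 and PSME2. The stretches are PSMB8 at chr6:32844032-32844061 (minus strand), PSMB10 at chr16:67936851-67936901 (minus strand), PSME1 at chr14:24136189-24136218 (plus strand) and PSME2 at chr14:24146611-24146668 (minus strand), each written 5′ to 3′ along the gene.
PSMB8: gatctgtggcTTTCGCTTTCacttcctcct
PSMB10: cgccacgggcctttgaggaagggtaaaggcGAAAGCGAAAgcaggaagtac
PSME1: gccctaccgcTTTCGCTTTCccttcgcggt
PSME2: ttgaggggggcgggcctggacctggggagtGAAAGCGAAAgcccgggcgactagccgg
All 4 matches lay within 28 bases of the start. The core was in 4 of the 5 genes of this group, all but PSMB9, in 3 of the other 38 genes (PSMA4, PSMB4 and PSMG4), and in 3.57% of the 35116 windows of all genes. None of the 16 windowed 19S genes held it. Absence of a match says only that these letters are not in the window.

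The 19S genes are shown next, because most of them rose and 9 of the 16 with a window shared another sequence, the ETS core CCGGAAG, searched on both strands and marked in capitals. The stretches are PSMD14 at chr2:161308411-161308440 (plus strand), PSMD6 at chr3:64023495-64023561 (minus strand) and PSMC2 at chr7:103347642-103347671 (plus strand).
PSMD14: actagtgaacCCGGAAGtgcttcgcggcgg
PSMD6: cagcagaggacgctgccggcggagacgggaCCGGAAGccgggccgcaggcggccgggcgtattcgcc
PSMC2: gaagacaccaCCGGAAGcaaggaaggtgct
Of the cap genes with the ETS core, PSMC1, PSMC2, PSMC6, PSMD6, PSMD7, PSMD8, PSMD12 and PSMD14 were higher and PSMD13 was lower. PSMD1 and PSMD2, which had windows without it, were higher as well. The ETS core was in 1 of 10 windowed 20S genes, in none of the 5 immunoproteasome and PA28 genes, in 17 of all 43 and in 10.3% of all windows. The core of the antioxidant response element, TGACNNNGC, which NFE2L1 is known to bind, was in 15 of 43 genes, against 13.3% of all windows. By group it was in 5 of the 16 windowed 19S genes and in 2 of 10 windowed 20S genes. It was also in 3 of the 5 immunoproteasome and PA28 genes, PSMB9, PSME1 and PSME2, which fell. Of the cap genes with this core, PSMC5 was lower, and PSMC4, PSMD1, PSMD3 and PSMD12 were higher. PSMD3, whose mRNA was the most abundant of the cap, held this core at chr17:39980740-39980806 (plus strand).
PSMD3: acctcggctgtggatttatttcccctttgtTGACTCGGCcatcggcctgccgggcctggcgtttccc
The CCAAT box (CCAAT) was in 21 of 43 genes against 34.6% of all windows, and the gamma-activated site (TTCNNNGAA) in 7 of 43 against 7.66%. A gene is counted if any of its windows matched, whereas the shares of all windows are per window. The 43 genes had 54 windows. Of these, 18 held the ETS core, 15 the antioxidant core, 23 the CCAAT box, 7 the gamma-activated site and 7 the interferon core. These 5 motifs were chosen with the expression values known, and a match is a description of letters, not of binding.

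Most constitutive subunit genes were slightly higher in si_GRB2, while the immunoproteasome genes were lower. Of the 49 genes, 24 were called higher and 9 lower. Over all tested genes, 15.2% were called higher and 15.5% lower. Most proteasome genes are abundant, and small changes pass more easily there: of the 4000 genes with a mean of at least 50 CPM, 24.8% were called higher and 26.2% lower. The median log2 fold change was 0.08 over the 49 genes and 0.11 over the 31 constitutive 26S subunits, against 0.0019 over all tested genes. In 38 of the 49 genes the libraries of the groups did not overlap, as in 42.3% of all tested genes. The study's methods ask for a fold change above 1.5 or at most 0.667 and a p under 0.01, without saying whether p was adjusted, and the adjusted p was used here. PSMB8 and PSMB9 passed these limits, both as lower, as did 1.69% of all tested genes on the lower side. No other proteasome gene passed the fold limits in either direction.

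**Figure D1:**
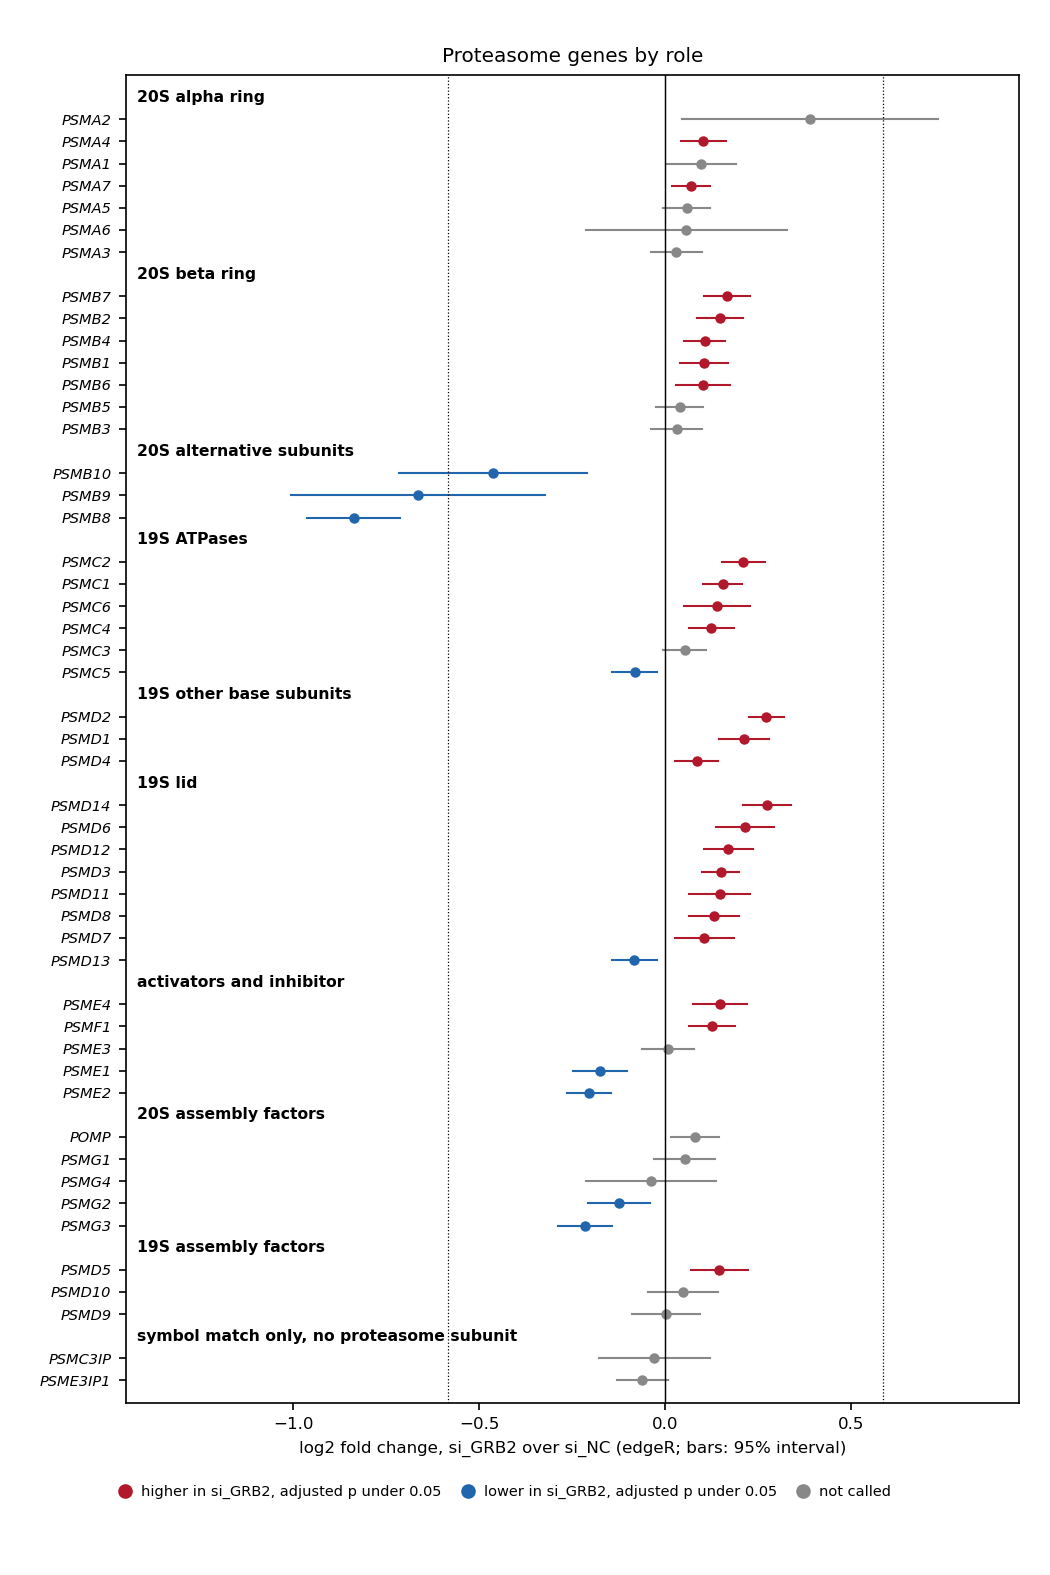
Log2 fold change of si_GRB2 over si_NC for each of the 49 genes, grouped by role, with 95% intervals from edgeR (n = 3 libraries per group). Dotted lines mark the study's fold limits at -0.585 and 0.585 on the log2 scale. The 3 alternative catalytic subunits lie farthest to the left, and 15 of the 17 genes of the 19S cap lie right of 0.

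The 19S cap, the part that recognises and unfolds substrates, held most of the called rises. Of its 17 genes, 14 were higher, PSMC5 and PSMD13 were lower, and PSMC3 was not called. The median log2 fold change of the cap was 0.15. The libraries of the groups did not overlap for any of the 17, against 42.3% of all tested genes without overlap. That share was not determined for abundant genes alone, where small changes separate libraries more easily. Summed over the cap, the level was 4367, 4435 and 4375 CPM in si_NC and 4850, 4842 and 4834 CPM in si_GRB2, 1.1 times as high. The spread of that sum within a group was 37.6 CPM (SD) in si_NC and 8.11 CPM in si_GRB2.

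In the base of the cap, PSMD2, a scaffold on which ubiquitin receptors dock, stood at 565, 563 and 569 CPM in si_NC and at 684, 680 and 685 CPM in si_GRB2. All 3 si_GRB2 libraries lay above all 3 control libraries by far more than either group's spread. The log2 fold change was 0.27 ± 0.02 (SE; edgeR's quasi-likelihood test, adjusted p = 1.70e-07). PSMD1, the other large scaffold of the base, stood at 165, 158 and 158 CPM against 179, 187 and 190 CPM. Its log2 fold change was 0.21 ± 0.03 (edgeR, adjusted p = 9.76e-05). PSMD4, a ubiquitin receptor, changed by 0.08 (edgeR, adjusted p = 0.0244).

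Of the 6 ATPases that pull substrates into the core, PSMC1, PSMC2, PSMC4 and PSMC6 were higher. PSMC2 stood at 250, 257 and 245 CPM in si_NC and at 288, 291 and 290 CPM in si_GRB2, with a log2 fold change of 0.21 ± 0.03 (edgeR, adjusted p = 2.22e-05). The other 3 rose by 0.12 to 0.15 on the log2 scale. PSMC3 stood at 213 CPM in each si_NC library and at 222, 224 and 216 CPM in si_GRB2, with a log2 fold change of 0.05 and a 95% interval of -0.01 to 0.11. PSMC5 went the other way, from 324, 347 and 339 CPM to 320, 317 and 318 CPM. It fell by 0.08 on the log2 scale (edgeR, adjusted p = 0.0385), less than most other changes of the cap. Exons of PSMC1 overlap those of NRDE2 on the opposite strand over 76.1% of their length, and NRDE2 had 18.1% as many reads as PSMC1. Whether counting used strand is not given in the sources used here.

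The lid carries the deubiquitinase that releases ubiquitin before degradation, PSMD14. Its level was 120, 119 and 117 CPM in si_NC and 145, 143 and 142 CPM in si_GRB2. The log2 fold change of 0.27 ± 0.03 (edgeR, adjusted p = 4.14e-06) was the largest called rise among the 49 genes, close to that of PSMD2. PSMD6, a structural subunit of the lid, stood at 76.6, 79.5 and 78.9 CPM against 93.0, 87.5 and 92.2 CPM, a log2 fold change of 0.21 ± 0.04 (edgeR, adjusted p = 0.000314). The lid subunits PSMD3, PSMD7, PSMD8, PSMD11 and PSMD12 rose by 0.10 to 0.17 on the log2 scale. PSMD13, another lid subunit, stood at 185, 185 and 188 CPM in si_NC and at 172, 177 and 178 CPM in si_GRB2, and fell by 0.08 on the log2 scale (edgeR, adjusted p = 0.0361).

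In the 20S core the changes were smaller. All 14 constitutive core genes had a positive log2 fold change, with a median of 0.10, but only 7 were called, all as higher. Libraries of the groups did not overlap for 9 of the 14, against 42.3% of all tested genes. Summed over the 14 genes, the level was 2655, 2688 and 2682 CPM in si_NC and 2865, 2816 and 2859 CPM in si_GRB2, 1.06 times as high. These core values use the rows of PSMA1, PSMA2 and PSMA6 alone, which are incomplete. Genes that share their exons held means of 149, 306 and 224 CPM in si_NC, and the sum leaves these reads out. With these reads added, the median log2 fold change of the core was 0.095. Whether cap and core differed in their change was not tested.

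Of the alpha ring, PSMA4 and PSMA7 were called. PSMA4 stood at 205, 208 and 200 CPM in si_NC and at 221, 216 and 222 CPM in si_GRB2, with a log2 fold change of 0.10 ± 0.03 (edgeR, adjusted p = 0.0111). PSMA7, the most abundant core mRNA at 254 FPKM in si_NC (the deposited level, scaled for gene length and depth), changed by 0.07 (edgeR, adjusted p = 0.0344). PSMA3 and PSMA5 did not pass the test, with log2 fold changes of 0.03 and 0.06. The rows of PSMA1, PSMA2 and PSMA6 cannot be read alone. Each shares exons with a same-strand protein-coding read-through gene that held more reads. PSMA2 had 410 reads in all and its partner RP11-111K18.1 had 50409. PSMA2's own log2 fold change of 0.39 (95% interval 0.05 to 0.73) had an adjusted p of 0.0829 by edgeR's quasi-likelihood test. With the reads of both rows summed, a choice made after the data were seen, the log2 fold change was 0.09 for PSMA2 (edgeR, adjusted p = 0.0134), 0.10 for PSMA1 (adjusted p = 0.0208) and 0.02 for PSMA6 (adjusted p = 0.718).

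Of the beta ring, 5 of 7 genes were higher. PSMB7, the trypsin-like catalytic subunit, led them with 257, 262 and 273 CPM in si_NC and 297, 292 and 299 CPM in si_GRB2, a log2 fold change of 0.17 ± 0.03 (edgeR, adjusted p = 0.000362). PSMB6, the caspase-like catalytic subunit, stood at 125, 128 and 131 CPM against 139, 141 and 132 CPM, a log2 fold change of 0.10 ± 0.03 (edgeR, adjusted p = 0.0313). For PSMB6 the lowest si_GRB2 library and the highest control library lay side by side. PSMB5, the chymotrypsin-like catalytic subunit, stood at 249, 234 and 244 CPM against 251, 244 and 252 CPM, and its groups overlapped. Its log2 fold change was 0.04 with a 95% interval of -0.02 to 0.10. The noncatalytic PSMB1, PSMB2 and PSMB4 rose by 0.10 to 0.15 on the log2 scale, and PSMB3 did not pass the test at 0.03.

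**Figure D2:**
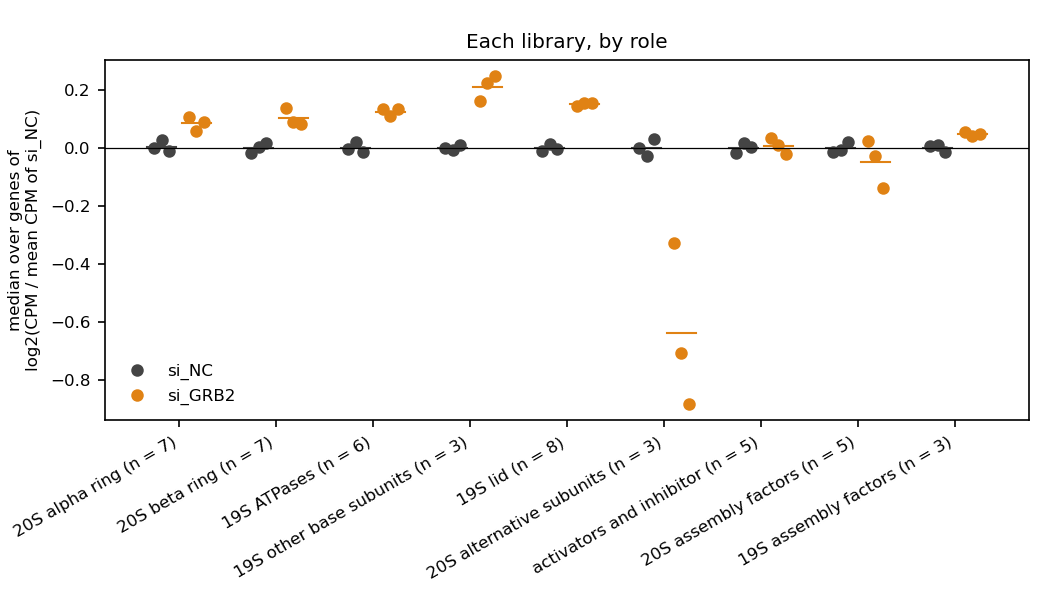
Median over the genes of each role of the log2 ratio of CPM to the gene's mean CPM in si_NC, for each of the 6 libraries (points; horizontal lines are group means of 3 libraries). All 3 si_GRB2 libraries lie above the controls for both 20S rings, the ATPases, the other base subunits and the lid, and below them for the alternative catalytic subunits.

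The immunoproteasome catalytic subunits PSMB8, PSMB9 and PSMB10 were all lower in si_GRB2. PSMB8, the replacement for PSMB5, stood at 39.6, 38.8 and 40.4 CPM in si_NC and at 24.6, 20.5 and 21.5 CPM in si_GRB2. The highest si_GRB2 library was far below the lowest control. This was 0.560 times the control level, with a log2 fold change of -0.84 ± 0.06 (edgeR, adjusted p = 2.73e-08), the largest called change among the 49 genes. PSMB8 lies at chr6:32840717-32844679 on the minus strand (GRCh38), in the MHC class II region. PSMB8-AS1, a long noncoding RNA over 17.3% of its exonic bases, had 14.3% as many reads.

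PSMB9, the replacement for PSMB6, was low throughout, at 5.88, 5.45 and 5.63 CPM in si_NC and at 4.57, 3.46 and 2.69 CPM in si_GRB2. The groups did not overlap, but the si_GRB2 libraries were spread widely. The log2 fold change was -0.66 ± 0.16 (edgeR, adjusted p = 0.00462). With 1 library left out, its adjusted p was not always under 0.01, the limit it had passed. By edgeR it was 0.0116 without si_NC 1, 0.0160 without si_NC 2, 0.0233 without si_GRB2 2 and 0.0295 without si_GRB2 3. PSMB9 was still called lower in these fits. Calls were fewer over all tested genes too with 1 library left out, 12.2% to 14.5% lower against 15.5% with all 6. PSMB9 lies at chr6:32844136-32859851 on the plus strand and shares 139 exonic bases with PSMB8, on the opposite strand. PSMB8 had 4960 reads in all against 740 for PSMB9. PSMB8-AS1, on the same strand over 5.21% of the exonic bases of PSMB9, had 711 reads. The part of these overlaps in the PSMB9 values was not tested.

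PSMB10, the replacement for PSMB7, stood at 6.45, 8.12 and 8.02 CPM in si_NC and at 6.0, 5.21 and 5.17 CPM in si_GRB2. The highest si_GRB2 library lay close under the lowest control. The log2 fold change was -0.46 ± 0.12 (edgeR, adjusted p = 0.00722). PSMB10 lies at chr16:67934506-67936864 on the minus strand, and 39.4% of its exonic bases are shared with a same-strand read-through gene, CTC-479C5.12, that had more reads. The sum of both rows had a log2 fold change of -0.39 (edgeR, adjusted p = 0.000156), so the direction did not depend on how reads were split.

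Setting each alternative subunit against the one it replaces within a library removes any scaling between libraries. As FPKM, PSMB8 was 7.07%, 7.39% and 7.38% of PSMB5 in si_NC and 4.37%, 3.73% and 3.79% in si_GRB2. PSMB9 was 1.91% ± 0.109 of PSMB6 in si_NC and 1.12% ± 0.281 in si_GRB2 (SD, n = 3). PSMB10 was 3.13% ± 0.335 of PSMB7 in si_NC and 2.03% ± 0.171 in si_GRB2. Together the alternative subunits made up 4.31% ± 0.110 of the catalytic subunit FPKM in si_NC and 2.50% ± 0.247 in si_GRB2. Both groups were thus dominated by constitutive catalytic mRNA, and in none of the 4 ratios did the libraries of the groups overlap. These ratios were described without a test. Their size depends on the gene lengths used for FPKM. PSMB8 and PSMB5 had mean levels of 39.6 and 242 CPM in si_NC, a smaller gap than the 9.15 and 126 FPKM. The PSMB10 ratio and the joint share use the PSMB10 row alone, without its read-through gene. Both rows summed held 23.1 CPM in si_NC, against 7.53 CPM for PSMB10 alone, so these values may be too low.

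**Figure D3:**
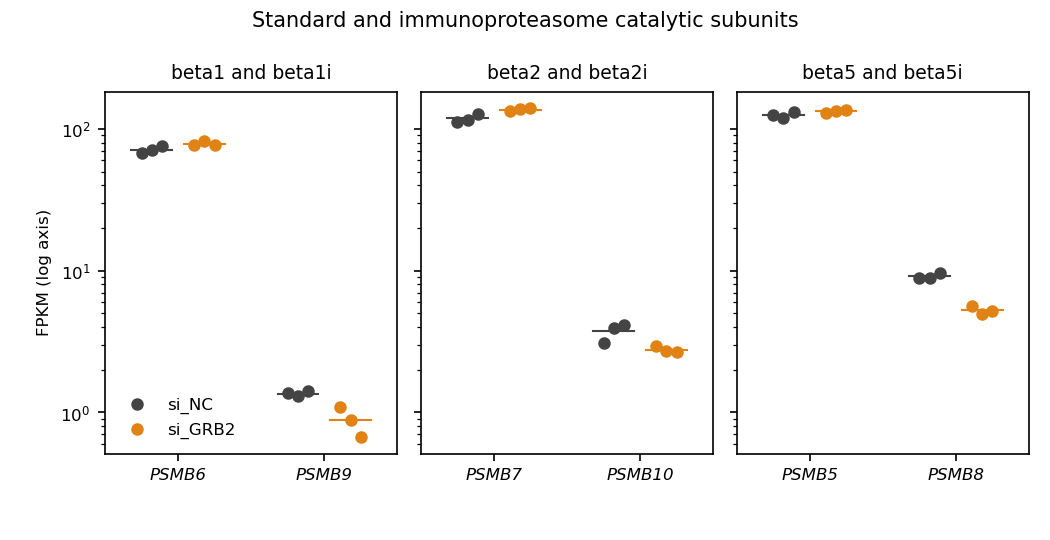
FPKM (log axis) of each constitutive catalytic subunit and of the immunoproteasome subunit that replaces it, for each of the 6 libraries (points; horizontal lines are group means of 3 libraries). In FPKM, which depends on the gene length used, PSMB8, PSMB9 and PSMB10 lie more than 10-fold below PSMB5, PSMB6 and PSMB7. They are lower in si_GRB2. PSMB10 is shown without the reads of its read-through gene.

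The activators split. PSME1 and PSME2, the interferon-inducible subunits of the PA28 ring that opens the core, were lower. PSME2 stood at 184, 188 and 187 CPM in si_NC and at 161, 162 and 162 CPM in si_GRB2, with a log2 fold change of -0.20 ± 0.03 (edgeR, adjusted p = 3.73e-05). PSME1 stood at 183, 184 and 176 CPM against 165, 163 and 153 CPM, a log2 fold change of -0.18 ± 0.03 (edgeR, adjusted p = 0.000843). For both genes all si_GRB2 libraries lay below all controls. The nuclear activator gene PSME3 had a log2 fold change of 0.01 with a 95% interval of -0.06 to 0.08. PSME4, which encodes the activator PA200, and PSMF1, which encodes the inhibitor PI31, rose by 0.15 and 0.13 on the log2 scale (edgeR, adjusted p = 0.00359 and 0.00344).

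Assembly factors did not move as a group. Of the 8 genes, PSMD5 was higher, PSMG2 and PSMG3 were lower and 5 were not called. Their summed level was 547 CPM in both groups, with an SD of 3.79 in si_NC and 6.94 in si_GRB2. PSMG3, a chaperone of the alpha ring, stood at 102, 102 and 104 CPM in si_NC and at 90.8, 87.0 and 87.5 CPM in si_GRB2, with a log2 fold change of -0.22 ± 0.03 (edgeR, adjusted p = 0.000141). PSMD5, a chaperone of the ATPase ring, stood at 60.7, 60.9 and 59.9 CPM against 67.0, 66.5 and 67.3 CPM, a log2 fold change of 0.15 ± 0.04 (edgeR, adjusted p = 0.00527). POMP, which the beta ring needs to mature, missed the threshold with a log2 fold change of 0.08 (edgeR, adjusted p = 0.0564).

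PSMG1, a core chaperone, had a log2 fold change of 0.05, and PSMG4, the partner of PSMG3, one of -0.04. The ATPase chaperones PSMD9 and PSMD10 had 0.00 and 0.05. The 2 symbol matches, PSMC3IP and PSME3IP1, had -0.03 and -0.06 and were not called either. PSME3IP1 stood at 103, 107 and 106 CPM in si_NC and at 101, 101 and 102 CPM in si_GRB2.

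Several of the smaller called changes, up to 0.15 on the log2 scale, missed the threshold in some fits with 1 library left out. Calls were fewer over all tested genes too in these fits, 11.2% to 13.4% higher and 12.2% to 14.5% lower. With all 6 libraries the shares were 15.2% and 15.5%. Leaving out 1 library at a time, PSMA4 missed the threshold without si_NC 3 (edgeR, adjusted p = 0.0735), PSMD11 without si_NC 2 (0.0689), PSMB1 without si_NC 1, si_NC 2 or si_GRB2 1 (0.0965, 0.0529 and 0.0764) and PSMC6 without si_NC 2, si_NC 3 or si_GRB2 3 (0.0667, 0.0936 and 0.0832). PSMG2 missed it without si_NC 1, si_GRB2 2 or si_GRB2 3 (edgeR, adjusted p = 0.0809, 0.0820 and 0.0731). PSMB6 missed it without si_NC 1, si_NC 2, si_GRB2 1 or si_GRB2 2 (0.162, 0.102, 0.0873 and 0.149), and PSMD4 without si_NC 1, si_NC 2, si_GRB2 2 or si_GRB2 3 (0.159, 0.0840, 0.0897 and 0.0574). PSMA7 and PSMD7 were called only without si_GRB2 1 (edgeR, adjusted p = 0.0462 and 0.0308; up to 0.155 and 0.208 otherwise), and PSMC5 only without si_NC 1 (0.00794; up to 0.145 otherwise). PSMD13 was called only without si_NC 1 or si_GRB2 3 (0.0442 and 0.0422; up to 0.129 otherwise). The other 16 called rises and 6 called falls stayed called in all 6 of these fits. With library totals in place of TMM factors, PSMC5, PSMD13 and PSMG2 were not called. In the limma fits PSMC5 and PSMD13 were at -0.04 on the log2(FPKM + 1) scale and far from the threshold (adjusted p = 0.652 and 0.638). With limma on log2(FPKM + 1), PSMB4 and PSME1 were among those that missed the threshold (adjusted p = 0.0501 and 0.0517).

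Around the proteasome, a list of 61 symbols of partner, ubiquitin, transcription and interferon genes was followed. It had rows for 58, the other 3 being older names of listed genes. Of these, 56 were tested, and 15 were higher and 12 lower with a median log2 fold change of 0.03. These shares, 26.8% and 21.4%, were near those of all tested genes with a mean of at least 50 CPM (24.8% and 26.2%). The counts of its parts below rest on few genes each. Of the 26S subunits with other symbols, ADRM1, a ubiquitin receptor, stood at 191, 194 and 204 CPM in si_NC and at 222, 215 and 205 CPM in si_GRB2. It was higher by 0.13 (edgeR, adjusted p = 0.0103), with the lowest si_GRB2 library next to the highest control, and missed the threshold when si_NC 1, si_NC 2 or si_GRB2 1 was left out (adjusted p = 0.0674, 0.0656 and 0.0583). SEM1, a small lid subunit, had a log2 fold change of 0.03 and was not called.

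Among 9 genes of proteasome gene transcription, 4 were higher (44.4%) and 1 was lower (11.1%). Over all tested genes the shares were 15.2% and 15.5%, and 24.8% and 26.2% at a mean of at least 50 CPM. NFE2L1 stood at 100, 103 and 104 CPM in si_NC and at 129, 131 and 127 CPM in si_GRB2. The groups were well apart, with a log2 fold change of 0.33 ± 0.03 (edgeR, adjusted p = 7.95e-07). Genes of the steps that release NFE2L1 from the membrane and cut it were higher too: the protease gene DDI2 by 0.28, the ubiquitin ligase gene SYVN1 by 0.23 and the deglycosylase gene NGLY1 by 0.16. MAFK, a partner of such factors on DNA, fell from 128 CPM in each si_NC library to 84.2, 83.6 and 81.7 CPM, a log2 fold change of -0.62 ± 0.03 (edgeR, adjusted p = 7.45e-10). NFE2L2, KEAP1, MAFF and MAFG were not called.

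Of the 16 tested interferon and antigen processing genes, 6 were lower (37.5%). Over all tested genes 15.5% were lower, and 26.2% of those with a mean of at least 50 CPM. None of the 16 was higher by edgeR or DESeq2, nor at an unadjusted p under 0.05. IRF1, an interferon-inducible transcription factor known to act on PSMB8 and PSMB9, stood at 27.3, 26.9 and 29.7 CPM in si_NC and at 18.0, 18.5 and 19.2 CPM in si_GRB2. Its log2 fold change was -0.59 ± 0.06 (edgeR, adjusted p = 9.27e-07). GBP1, an interferon-inducible GTPase, stood at 9.02, 8.99 and 8.16 CPM against 4.25, 4.62 and 5.17 CPM, a log2 fold change of -0.90 ± 0.11 (edgeR, adjusted p = 1.19e-05). The peptide transporter and loading genes TAP1, TAP2, TAPBP and B2M fell by 0.17, 0.14, 0.27 and 0.17 on the log2 scale. STAT2, IRF9, NLRC5, ISG15, OAS1 and MX1, other genes of the interferon response, were not called. Their log2 fold changes were -0.12, 0.05, 0.26, -0.27, -0.31 and -0.09. All but STAT2 were near the floor, with means of 1.26 to 2.85 CPM in si_NC and SEs of 0.16 to 0.25. A change of the size seen in TAP1 could not be called there.

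**Figure D4:**
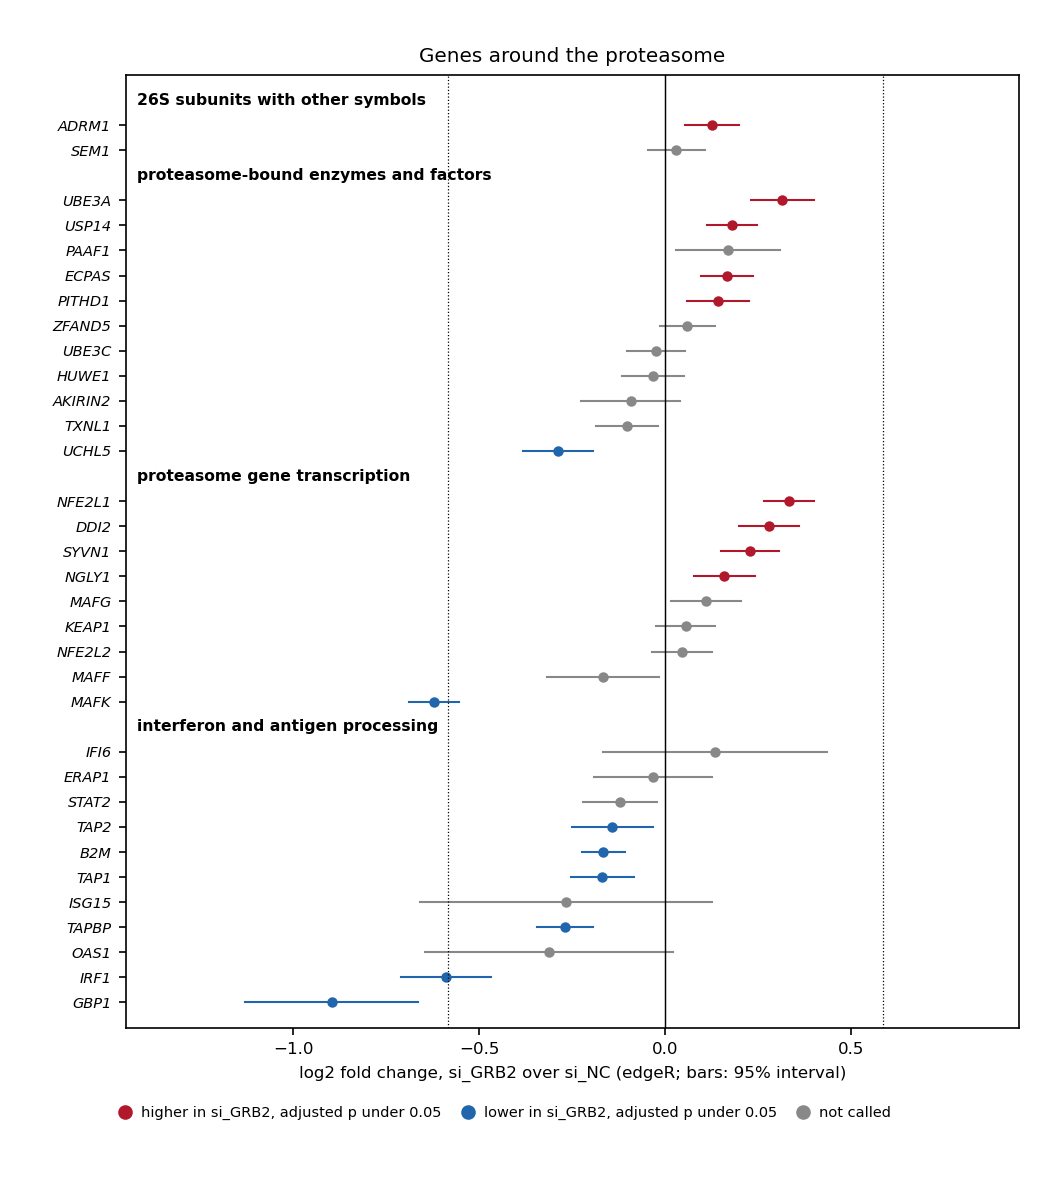
Log2 fold change of si_GRB2 over si_NC, with 95% intervals from edgeR (n = 3 libraries per group), for genes of 4 of the 7 lists around the proteasome, leaving out genes with few reads and genes not reported here. Dotted lines mark the study's fold limits at -0.585 and 0.585. NFE2L1 and its processing genes lie right of 0, and GBP1, IRF1 and MAFK lie at or beyond the lower limit.

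Enzymes that dock on the 26S proteasome moved both ways. The ubiquitin ligase gene UBE3A stood at 77.5, 78.2 and 72.6 CPM in si_NC and at 91.4, 95 and 97.6 CPM in si_GRB2, higher by 0.32 (edgeR, adjusted p = 1.51e-05). UCHL5, one of the deubiquitinases bound to the cap, stood at 72.8, 81.0 and 73.2 CPM against 61.2, 61.1 and 63.5 CPM, with a log2 fold change of -0.29 (edgeR, adjusted p = 0.000116), while USP14, the other, was higher by 0.18. Among shuttle receptors, which carry tagged proteins to the cap, UBQLN4 was lower, with 144, 147 and 145 CPM in si_NC against 131, 132 and 134 CPM in si_GRB2, and UBQLN1 was higher by 0.13 on the log2 scale.

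Of the genes that encode ubiquitin, UBB and RPS27A were lower. UBB stood at 722, 760 and 755 CPM in si_NC and at 645, 639 and 643 CPM in si_GRB2, a log2 fold change of -0.21 (edgeR, adjusted p = 7.41e-06). RPS27A, which encodes a fusion of ubiquitin to a ribosomal protein, had a log2 fold change of -0.07 (edgeR, adjusted p = 0.0310). The p97 system extracts tagged proteins from complexes and membranes. Of its 7 tested genes 4 were higher (57.1%), against 15.2% of all tested genes and 24.8% of those with a mean of at least 50 CPM. They were led by NPLOC4, with 180, 176 and 181 CPM against 201, 208 and 205 CPM. FAF2 followed, with 83.5, 76.9 and 81.3 CPM against 89.2, 91.9 and 95.2 CPM. VCP, which encodes p97 itself, was at 0.03 and not called.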

How the data were processed

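RNA-seq reads of the 6 SK-BR-3 libraries were trimmed, aligned to GRCh38 with HISAT2 and restricted to uniquely mapped reads by the authors, who deposited raw read counts per gene and FPKM per gene. The counter, the annotation release and the use of strand in counting are not given in the sources used here. Groups followed the sample descriptions. The deposited counts were tested with edgeR 4.0.16 (R 4.3.3; TMM, filterByExpr, glmQLFit and glmQLFTest, two-sided, no covariates) on all 15801 genes that passed the filter, with Benjamini-Hochberg adjustment. SE and 95% intervals are those of the edgeR log2 fold change. The deposited FPKM served for levels between genes, ratios within a library and limma alternatives. The script was tested on simulated data.

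The 49 genes and all lists were chosen with earlier results of these data known. Values in every library are given for the catalytic pairs, for the called gene of each role with the largest change (or the largest change where none was called), for the 8 largest called changes, and for up to 2 called genes of each list together with NFE2L1, ADRM1 and SEM1. Some genes of the lists are counted but not reported here by name. Other genes whose library values stand in the text, such as PSME1, PSMC3, PSMC5 and PSMD13, were chosen after their values were seen. Exon overlaps came from GENCODE 44, which held 99.7% of the gene identifiers and all 49 genes, and promoter windows from RefSeq. Depth was 24810378 to 28532480 counts per library. The alternatives were DESeq2 1.42.0 and its size factors, library totals, other count filters, limma 3.58.1 on log2 FPKM (pseudocounts 1 and 0.1), a replicate block, each library left out, and an adjusted p under 0.01.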

Additional observations from a re-analysis of the deposited data

Results flagged for a closer look

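The table held 22 further rows with a matching symbol that were not protein-coding, of which 6 were tested, and PSMG3-AS1 was the only one called by edgeR's quasi-likelihood test. PSMG3-AS1 is a long noncoding RNA transcribed from the strand opposite to PSMG3. It stood at 10.1, 7.49 and 8.70 CPM in si_NC and at 13.2, 11.4 and 12.9 CPM in si_GRB2, a log2 fold change of 0.51 ± 0.10 (SE, n = 3 per group; adjusted p = 0.00128). All 3 si_GRB2 libraries lay above all 3 controls, whereas the protein-coding PSMG3 was lower by the same test. Counting by strand is not stated, and its part in these values was not tested.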

How the results depend on the processing

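Called rises numbered 17 to 30 over all alternatives and called falls 5 to 9, against 24 and 9. The falls were 5 with limma on log2(FPKM + 1) and 5 with log2(FPKM + 0.1). With library totals in place of TMM, 30 genes were higher and 6 lower, and over all tested genes the split moved from 2396 higher and 2442 lower to 3447 and 1733, with a median log2 fold change of 0.05. The count past the study's limits, 2, was 1 in each of the 3 limma fits and 1 to 2 with a library left out, PSMB9 being the gene lost. At an adjusted p under 0.05, in every refit 15 of the 24 rises and 5 of the 9 falls stayed called. Around the proteasome, 23 genes were higher with library totals and 5 lower in each limma fit. SEM1, not called, ranged from -0.0065 without si_NC replicate 1 to 0.0719 without si_NC replicate 2.

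The median log2 fold change of the 20S core, 0.10, was 0.15 with library totals, 0.12, 0.14 and 0.14 in the limma fits (pseudocount 1, pseudocount 0.1, and a floor of 1 on the mean FPKM), and 0.0764 to 0.104 with a library left out. That of the 19S cap, 0.15, was 0.20 with library totals, 0.14 with at least 10 counts in every library, 0.17, 0.19 and 0.17 in the limma fits, and 0.13 to 0.15 with a library left out. That of the assembly factors, 0.025, was 0.0752 with library totals, 0.0604, 0.068 and 0.0858 in the limma fits, and 0.00636 to 0.0301 with a library left out.

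Deviations of same-numbered libraries from their group means had correlations of 0.271, -0.175 and -0.042. Those of unlike-numbered libraries ran from -0.277 to 0.359. Deviations from a mean of 3 libraries constrain each other, so these values cannot decide whether the numbers pair the libraries. With the replicate block 21 genes were higher, 7 lower and 2 past the limits, the calls of PSMA7, PSMD4, PSMD7, PSMC5 and PSMD13 being the ones lost, 15 genes around the proteasome were higher and 11 lower, and GRB2 stayed lower. With 3 libraries a group, changes under about 0.1 on the log2 scale were near the limit of what could be called, and genes under 10 CPM had SEs above 0.08.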
